A study of Mus musculus with 22 samples.

Results

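The genes described here encode the proteins of the mitochondrial ribosome. They were taken from the count table by symbol, as every row named Mrpl or Mrps followed by a number and at most 1 letter, without the 6 rows whose names end in -ps. The rule found 78 of the 55011 rows, 49 Mrpl and 29 Mrps genes, and 77 of them were among the 15462 genes with enough counts to be tested. The mitochondrial ribosome reads the few messenger RNAs that mitochondrial DNA encodes, nearly all of them subunits of the respiratory chain. Its ribosomal RNAs come from mitochondrial DNA, while each of its proteins is encoded in the nucleus, translated in the cytosol and imported. Some of these proteins have a bacterial counterpart and others exist only in mitochondria. T cells that leave rest and divide are known to build more mitochondria, and regulatory T cells (Tregs) are known to rely on respiration.

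RNA was sequenced from 22 libraries of mouse CD4+ T cells, 2 libraries for each of 11 codes in the sample titles. In 5 codes (F1, F2, F5, N2 and N3) the cells came from lymph nodes of 10-day-old scurfy mice, which lack working Foxp3, and carried a vector with human FOXP3 and the surface reporter LNGFR. In 3 codes (G1, G2 and G3) the scurfy cells carried the vector with LNGFR but no FOXP3. In 3 codes (E2, G4 and L1) the cells were CD4+CD25+ CD45.1+ cells with titles that read WT Treg. The labels give strain C57BL/6, lymph nodes and the genotype scurfy for all 22 libraries, the WT Treg ones included, and call the source Treg for the FOXP3 and WT Treg groups and conventional T cell for the LNGFR group. Recipients in all 3 groups were scurfy mice that had cyclophosphamide at 50 mg/kg at 10 days of age, the cells on day 14, and injections of human IL-2 (1000 IU per g) on 5 days in a row and then once weekly. The cells were recovered on day 50 by sorting 1000 LNGFR+ or CD45.1 cells a library in 2 rounds. The labels do not say what a code stands for or whether codes are separate mice, so the p-values measure the spread between codes, which may be technical. The 2 libraries of a code were summed and counted as 1 replicate.

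Library totals ran from 2204508 to 5453375 counts outside codes E2 and G1. Both E2 libraries (641980 and 512646 counts) and the second G1 library (332570) were far smaller, and 29.1% to 58.7% of their counts fell on Gm10800 and related repeat-like gene models, against 2.2% to 4.5% in the 18 libraries of the other codes. The first G1 library stood apart in another way: 20.0% of its counts fell on genes with under 1500 exon bases, against 7.6% to 10.0% in those 18 libraries. Code N3 held 14396 and 15848 CPM (counts per 1000000) of B-cell marker RNA over 12 genes, against 1374 to 4572 CPM in the other 20 libraries, and its CD4 T-cell markers (4828 and 4663 CPM over 10 genes) were below the 6481 to 7993 CPM of the other FOXP3, LNGFR and WT Treg libraries outside codes E2 and G1. Cd3e and Cd4 were present in all 11 codes, at 307 to 801 CPM and 187 to 724 CPM, so every code held RNA of CD4 T cells. These genes do not tell Tregs from conventional T cells or measure how much RNA came from other cells. Mouse Foxp3 was at 704 to 1630 CPM in WT Treg, 42.7 to 143 CPM in LNGFR and 162 to 313 CPM in FOXP3 codes, and was higher in WT Treg than in LNGFR by 3.92 ± 0.52 (log2, SE; edgeR adjusted p = 0.0019). The human transgene has no row of its own and was not analysed here.

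The family as a whole took a steady share of the RNA except in the libraries that stood apart. In the 18 libraries of the other 9 codes, the 78 genes together held 3641 to 4870 CPM, counted without the repeat-like models. The first G1 library held 7556 CPM (95% Wilson interval 7453 to 7661), above all of those, while the second G1 library of the same code held 2298 CPM (2113 to 2499). The 2 E2 libraries held 2525 CPM (2341 to 2724) and 2343 CPM (2163 to 2537). Intervals cover counting error only, since PCR copies are not marked. The genes for the cytosolic ribosome moved the same way, with 134916 CPM in the first G1 library, 21546 in the second, 25140 and 27720 in E2, and 41028 to 61020 in the other 18. The part of library quality in these shares was not tested. In bulk RNA of this kind, fewer cells with a transcript and less of it per cell cannot be told apart.

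**Figure D1:**
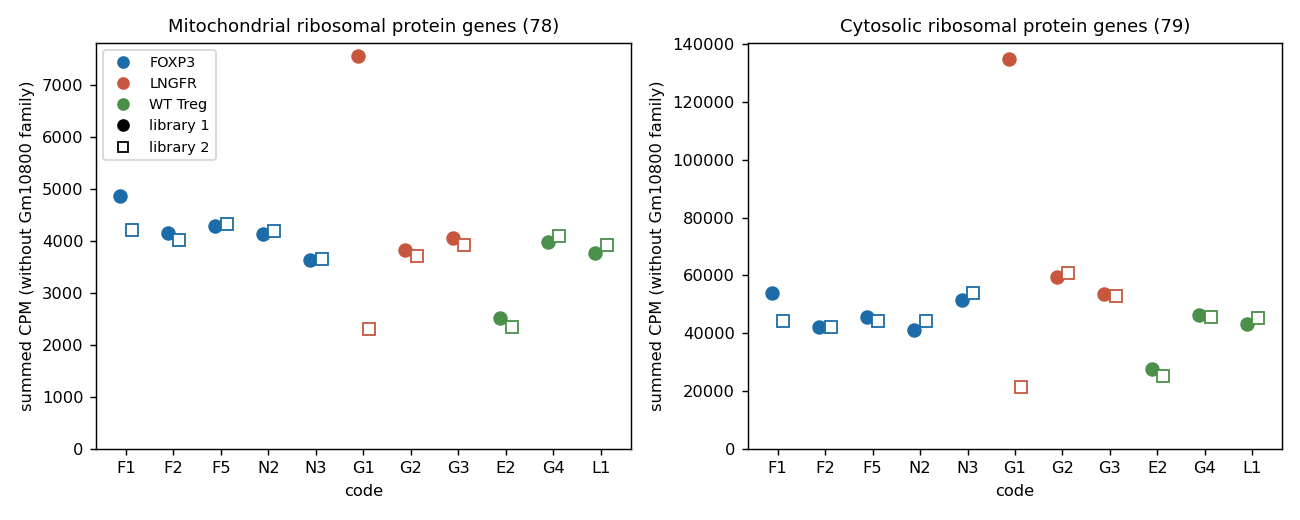
Summed CPM (y axis, from 0) of the 78 mitochondrial ribosomal protein genes (left) and of 79 cytosolic ribosomal protein genes (right) in each library, by code (x axis), with filled circles for the first and open squares for the second library of a code. The first G1 library lies above all others in both panels at 7556 and 134916 CPM, and the second G1 library and both E2 libraries lie below the other 18.

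Levels within the family spanned a wide range per length of transcript. Of the 77 genes tested, 73 lay above the median of all genes tested (4.01 CPM per kb of exon), and the family's own median was 20.9 CPM per kb. The highest levels per length were those of Mrpl18 (79.8 CPM per kb), Mrpl54 (68.3) and Mrpl52 (64.8), which all belong to the large subunit. The lowest of all 78 genes was Mrpl53 (0.84 CPM per kb), which was not among those tested. Next came Mrpl23 (1.7), whose bacterial counterpart sits at the tunnel exit, and Mrpl47 (3.3). Genes for small-subunit proteins without a bacterial counterpart had a median of 9.33 CPM per kb over 10 genes, against 26.2 over 16 small-subunit genes with one. The large subunit gave 26.2 over 30 genes with a counterpart and 20.1 over 20 without. Exon length was taken over all annotated transcripts of a gene, so a gene with long rare transcripts is given too low a level, and these medians were not tested.

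Mrpl53, with 59 counts over all libraries, was the 1 gene with too few counts to be tested. In GENCODE M21, 695 of its 790 exon bases on chromosome 6 (83109040 to 83109939) also belong to the exons of Gm42688 on the same strand, a gene model with 222 counts. Exons of 33 of the 78 genes overlap another gene, on the opposite strand for 28 and on the same strand for 8. Mrpl46 and Mrps11 overlap each other by 173 exon bases on opposite strands. The strand setting of the counting is not given in the sources used here, so the counts of such genes may hold or lack reads of their neighbours.

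**Figure D2:**
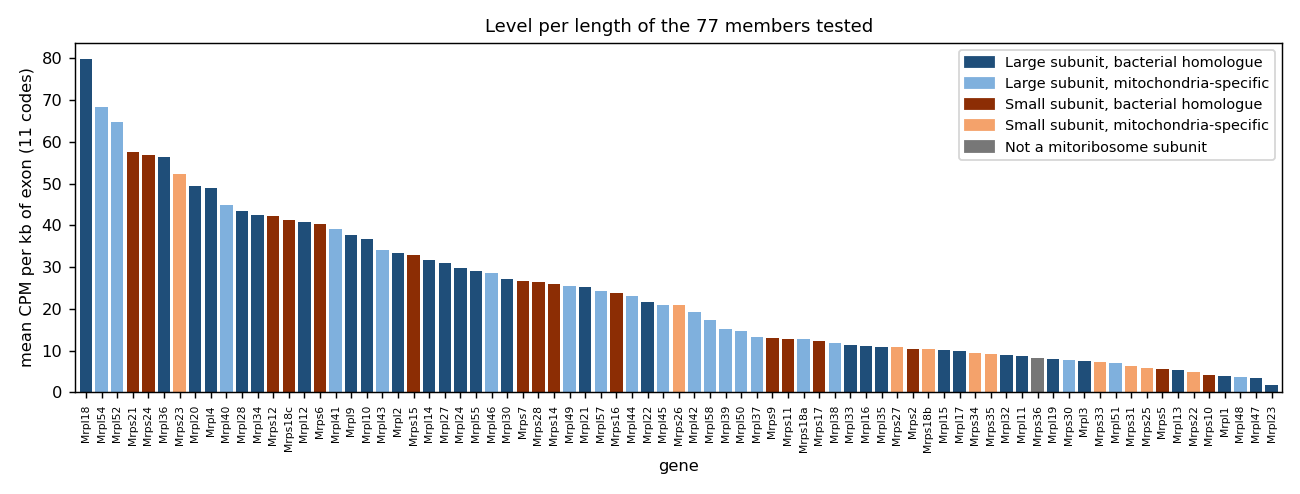
Mean level over the 11 codes in CPM per kb of exon (y axis, from 0) for the 77 genes tested (x axis, ordered), coloured by subunit and by whether the protein has a bacterial counterpart. Mrpl18 leads at 79.8, and most small-subunit genes without a counterpart stand in the right part of the plot.

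The genes lie on 17 chromosomes, and the sequences at their starts were searched for short motifs. RefSeq promoter windows of GRCm38.p6 (250 bases before to 50 after a start) were found for 69 of the 78 genes. A match to CGCANGCGC, the core that nuclear respiratory factor 1 (NRF1) recognises, was present on either strand in 26.1% of the 69, against 14.6% of the genes tested and 7.12% of all genes with a window. CCGGAAG, the core of ETS factors such as GABPA, was in 37.7%, against 19.6% and 9.93%. AAGATGGC, the core of YY1, was in 17.4%, against 5.14% and 3.19%. At least 1 of the 3 was in 63.8% of the family, 34.0% of the genes tested and 17.9% of all genes. The E-box CACGTG was in 7.25%, against 11.4% of the genes tested and 8.09% of all genes. GGGCGGG of SP factors was in 42.0%, below the 48.8% of the genes tested and above the 27.9% of all genes. These are shares of windows that hold the letters, given as a description and not tested, and a match is not a site of binding. No 2 of these motifs contain each other. The median GC content of the windows was 58.7% in the family and 60.0% in the genes tested.

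The sequences below are the upstream parts of 6 such windows, on GRCm38.p6 and written 5′ to 3′ on the strand of the gene, each kept to its longest stretch without an annotated exon. Mrpl10 and Mrpl12 (the pair that forms the flexible stalk of the large subunit, where translation factors dock) and Mrpl45 (which ties the large subunit to the inner membrane) are shown for their NRF1 matches. Mrps22 and Mrps33 are shown because they had the smallest p in a comparison below, and Mrps6, chosen after its values were seen, because it was the gene of the family called once codes E2 and G1 were left out. Capitals mark matches to the NRF1, ETS or YY1 letters.
Mrpl10, chr11:97041408-97041559, plus strand: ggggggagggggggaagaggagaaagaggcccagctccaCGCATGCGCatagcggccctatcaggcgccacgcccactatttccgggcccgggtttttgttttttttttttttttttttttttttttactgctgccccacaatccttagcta
Mrpl12, chr11:120484387-120484612, plus strand: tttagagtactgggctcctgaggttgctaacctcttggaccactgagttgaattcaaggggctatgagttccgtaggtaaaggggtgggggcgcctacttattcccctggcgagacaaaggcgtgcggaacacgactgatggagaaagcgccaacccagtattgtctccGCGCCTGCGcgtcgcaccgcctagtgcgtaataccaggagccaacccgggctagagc
Mrpl45, chr11:97315466-97315715, plus strand: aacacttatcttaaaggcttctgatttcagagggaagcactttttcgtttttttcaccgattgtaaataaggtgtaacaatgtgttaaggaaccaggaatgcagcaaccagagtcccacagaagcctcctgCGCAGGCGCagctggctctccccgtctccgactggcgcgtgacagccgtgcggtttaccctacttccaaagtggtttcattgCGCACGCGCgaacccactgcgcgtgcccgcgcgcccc
Mrps22, chr9:98601680-98601929, minus strand: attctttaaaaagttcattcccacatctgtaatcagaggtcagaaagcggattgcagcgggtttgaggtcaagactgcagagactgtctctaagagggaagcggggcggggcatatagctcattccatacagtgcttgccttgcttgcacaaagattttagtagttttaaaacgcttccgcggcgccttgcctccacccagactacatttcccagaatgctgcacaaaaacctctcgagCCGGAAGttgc
Mrps33, chr6:39810989-39811186, minus strand: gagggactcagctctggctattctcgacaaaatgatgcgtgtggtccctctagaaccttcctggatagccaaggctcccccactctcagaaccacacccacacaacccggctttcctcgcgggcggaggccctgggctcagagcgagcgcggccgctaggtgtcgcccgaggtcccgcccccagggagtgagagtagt
Mrps6, chr16:92058086-92058269, plus strand: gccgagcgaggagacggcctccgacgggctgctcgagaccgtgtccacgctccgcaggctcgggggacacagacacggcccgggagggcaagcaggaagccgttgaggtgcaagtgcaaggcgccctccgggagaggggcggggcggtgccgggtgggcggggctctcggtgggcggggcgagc
The stretches of Mrps33 and Mrps6 hold none of the 3 motifs. The Mrps33 window has an ETS match only in the part left out, downstream of these bases. Mrps6 has GGGCGGG 3 times in the stretch printed.

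Across codes, the family moved mostly as 1 block, with its extremes in codes G1 and E2. Averaged over the 77 genes tested, log2 CPM was 5.61, 5.43, 5.52, 5.48 and 5.25 in FOXP3 codes F1, F2, F5, N2 and N3. It was 6.22, 5.25 and 5.37 in LNGFR codes G1, G2 and G3, and 4.13, 5.38 and 5.29 in WT Treg codes E2, G4 and L1. G1 was the highest and E2 the lowest of all 11 codes, and the other 9 codes lay within 5.25 to 5.61. Among those 9, F1, F2, F5 and N2 lay above G2, G3, G4 and L1, while N3 lay beside G2. Of the 77 genes, 64 were highest in G1 and 68 were lowest in E2. The shares of all genes tested that were so placed were not computed. G1 differed from the mean of G2 and G3 by a median of 1.09 (log2) in the family and 0.01 in all genes tested. E2 differed from the mean of G4 and L1 by -1.12 and -0.20. Library sizes on this scale include the repeat-like models, unlike the library shares above. In E2 a gene of the family had a median of only 15 counts, against 226 to 484 in the other codes. The 2 libraries of a code gave correlated levels over the 77 genes in 9 codes (r from 0.94 to 0.97, across genes), but not in E2 (0.53) or G1 (0.32). Without E2 and G1, the median within-group SD of a gene of the family was 0.18 on the log2 scale, against 0.36 for all genes tested. In the family it was lowest for Mrps5 (0.069) and highest for Mrps22 (0.40). With all 11 codes the medians were 0.51 and 0.62. The genes compared were not matched for level, and the family's median level per length is above that of all genes tested.

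**Figure D3:**
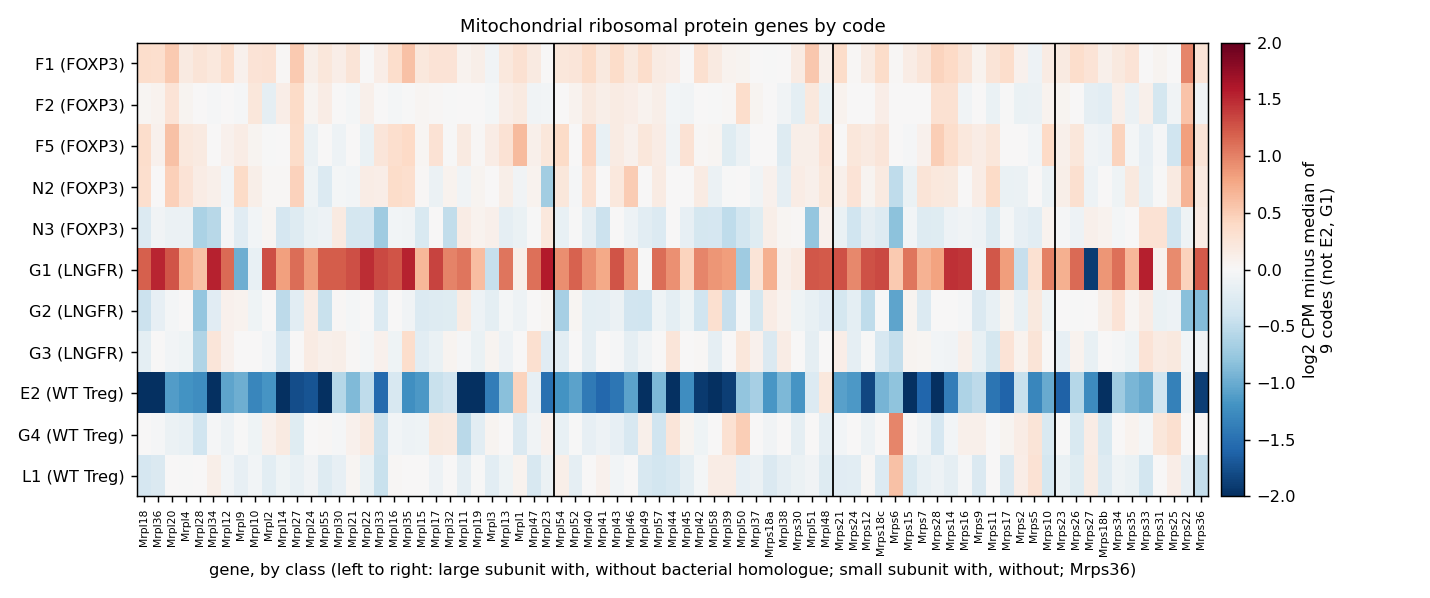
Difference of log2 CPM from the median of the 9 codes without E2 and G1 (colour, limited to -2 and 2) for 77 genes (columns, by subunit and bacterial counterpart) in 11 codes (rows). Code G1 is red and code E2 blue in nearly every column, while the other 9 rows stay pale except at a few genes such as Mrps6 and Mrps22.

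The first comparison set cells with FOXP3 against cells with the LNGFR vector alone. No gene of the family was called higher or lower at an adjusted p under 0.05 (edgeR, over all genes), where 0.168% of all genes tested were called higher and 0.375% lower. At an unadjusted p under 0.05, edgeR gave 1 gene higher and 1 lower (4.81% and 5.5% of all genes). DESeq2 called none (1.37% of all genes higher and 1.24% lower). The limma voom fit with quality weights called 2 genes higher, Mrps22 and Mrpl28, where 3.38% of all genes were higher and 3.4% lower. The family's median difference was -0.31 (log2), with 12 genes above 0, beside -0.02 for all genes tested. Without code E2 and library G1#2, the median was -0.49 and again 0 genes were called by edgeR (0.657% of all genes higher and 0.97% lower), with 0 higher and 10 lower at an unadjusted p under 0.05 (6.83% and 8.07% of all genes). That setting keeps the first G1 library, where the family is highest. Without codes E2 and G1, a setting chosen after seeing the data, the median was 0.11 with 56 genes above 0, beside 0.03 for all genes. EdgeR then called 0 genes (0.824% of all genes higher and 1.3% lower), with 8 higher and 1 lower at an unadjusted p under 0.05 (8.35% and 6.58%). The family's median was also above 0, at 0.12, when G1 was the only code left out.

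Mrps33, a small-subunit protein without a bacterial counterpart, had the smallest p. It stood at 10.7, 11.5, 9.5, 9.6 and 13.1 CPM in the FOXP3 codes (F1, F2, F5, N2, N3) and at 31.6, 11.8 and 12.9 CPM in LNGFR codes G1, G2 and G3. Only G1 was far above the FOXP3 codes, and N3 lay above G2 and G3. The difference was -0.77 ± 0.34 (log2, SE; edgeR adjusted p = 0.45) and shrank to -0.19 ± 0.24 without codes E2 and G1 (adjusted p = 0.786). Mrpl22, whose bacterial counterpart lines the exit tunnel, had the same arrangement, with 52.8 CPM in G1, 18.9 and 18.2 CPM in G2 and G3, and 14.8 to 20.9 CPM in the FOXP3 codes.

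Mrps22 went the other way. This small-subunit protein without a bacterial counterpart is known from inherited defects of mitochondrial translation. Its levels were 30.5, 23.0, 27.6, 24.9 and 14.6 CPM in FOXP3 codes F1, F2, F5, N2 and N3, 21.5, 8.6 and 14.9 CPM in LNGFR codes G1 to G3, and 14.5, 15.5 and 13.9 CPM in WT Treg codes E2, G4 and L1. The 4 FOXP3 codes other than N3 lay above all 6 codes of the other groups, and N3 lay among those. Group means were 24.1 ± 6.0 (SD, n = 5), 15.0 ± 6.4 (n = 3) and 14.6 ± 0.85 CPM (n = 3). The difference from LNGFR was 0.70 ± 0.32 (log2, SE; edgeR adjusted p = 0.473), and 1.03 ± 0.31 without codes E2 and G1 (adjusted p = 0.121). Against WT Treg it was 0.72 ± 0.33 (adjusted p = 0.29). The voom fit with quality weights gave 1.11 ± 0.25 against LNGFR (adjusted p = 0.0117) and 0.80 ± 0.23 against WT Treg (adjusted p = 0.0423).

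Mrpl28, a large-subunit protein with a bacterial counterpart, was named after its values were seen. It stood at 78.7, 66.3, 74.7, 73.4 and 42.7 CPM in the FOXP3 codes F1, F2, F5, N2 and N3, at 99.5, 38.4 and 43.4 CPM in G1, G2 and G3, and at 27.6, 50.1 and 65.9 CPM in E2, G4 and L1. All FOXP3 codes but N3 lay above G2 and G3, and N3 lay between those 2 LNGFR codes. The difference from LNGFR was 0.16 ± 0.36 (log2, SE; edgeR adjusted p = 0.891) with all codes, -0.07 ± 0.38 without code E2 and library G1#2, and 0.71 ± 0.23 without codes E2 and G1 (adjusted p = 0.156). Voom with quality weights gave 0.73 ± 0.21 (adjusted p = 0.0439).

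The second comparison set wild-type Tregs against LNGFR cells. With all codes, no gene of the family was called by edgeR, where 0.627% of all genes were higher and 0.673% lower. At an unadjusted p under 0.05, 0 were higher and 18 lower, against 8.16% and 6.66% of all genes. DESeq2 called none (2.54% of all genes higher and 2.32% lower), and voom with quality weights called 1 gene, Mrps6, higher (2.88% and 2.73% of all genes). The family's median was -0.66 (log2), with 5 genes above 0, beside 0.08 for all genes. Both the lowest WT Treg code, E2, and the highest LNGFR code, G1, stand behind that value. Without codes E2 and G1, the median was 0.0073 with 40 of 77 genes above 0, and edgeR called 1 gene (Mrps6, higher) where 1.77% of all genes were called higher and 1.58% lower. At an unadjusted p under 0.05, 2 were then higher and 0 lower (7.9% and 6.49%). Leaving out code E2 and library G1#2 gave a median of -0.65 and no call by edgeR (1.05% of all genes higher and 1.02% lower), with 0 higher and 8 lower at an unadjusted p under 0.05 (6.9% and 6.97%).

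Mrps33 again had the smallest p, at 5.3, 10.4 and 8.3 CPM in E2, G4 and L1 against 31.6, 11.8 and 12.9 CPM in G1 to G3. The 3 WT Treg codes lay below the 3 LNGFR codes, by -1.14 ± 0.40 (log2, SE; edgeR adjusted p = 0.225). Without codes E2 and G1 the difference was -0.41 ± 0.29 (adjusted p = 0.59). Mrpl57 (a large-subunit protein without a bacterial counterpart) and Mrpl33 (one with a counterpart) came next, with -0.97 ± 0.34 and -1.23 ± 0.44 and the same arrangement of codes. Mrpl33 was at 27.6, 60.2 and 59.9 CPM in E2, G4 and L1 and at 202.8, 67.7 and 86.1 CPM in G1, G2 and G3.

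The third comparison set cells with FOXP3 against wild-type Tregs. No gene of the family was called by edgeR with all codes, where 0.136% of all genes were higher and 0.123% lower. At an unadjusted p under 0.05, 1 was higher and 0 lower (4.38% and 12.1% of all genes). DESeq2 called none (1.39% of all genes higher and 5.79% lower), and voom with quality weights called Mrps22 higher and Mrps6 lower (2.28% and 4.61% of all genes). The median was 0.38 with 73 genes above 0, beside 0.01 for all genes. Leaving out code E2 and library G1#2 brought the median to 0.15 with 60 genes above 0, beside 0.02 for all genes, and no call by edgeR (0.195% of all genes higher and 0.234% lower), with 0 higher and 1 lower at an unadjusted p under 0.05 (3.51% and 5.04%). Without codes E2 and G1, edgeR called 0 higher and 1 lower, Mrps6 (0.983% and 1.76% of all genes), with 8 higher and 2 lower at an unadjusted p under 0.05 (6.19% and 8.35%). Mrpl27, whose bacterial counterpart reaches toward the peptidyl transferase centre, and Mrps10 had the next smallest p after Mrps22. Mrpl27 stood at 39.2, 35.6, 35.5, 37.9 and 22.9 CPM in F1, F2, F5, N2 and N3 and at 7.9, 23.1 and 24.8 CPM in E2, G4 and L1. All FOXP3 codes but N3 lay above the WT Treg codes, and the difference was 0.78 ± 0.38 (edgeR adjusted p = 0.33). For Mrps10 it was 0.61 ± 0.30 (adjusted p = 0.335).

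**Figure D4:**
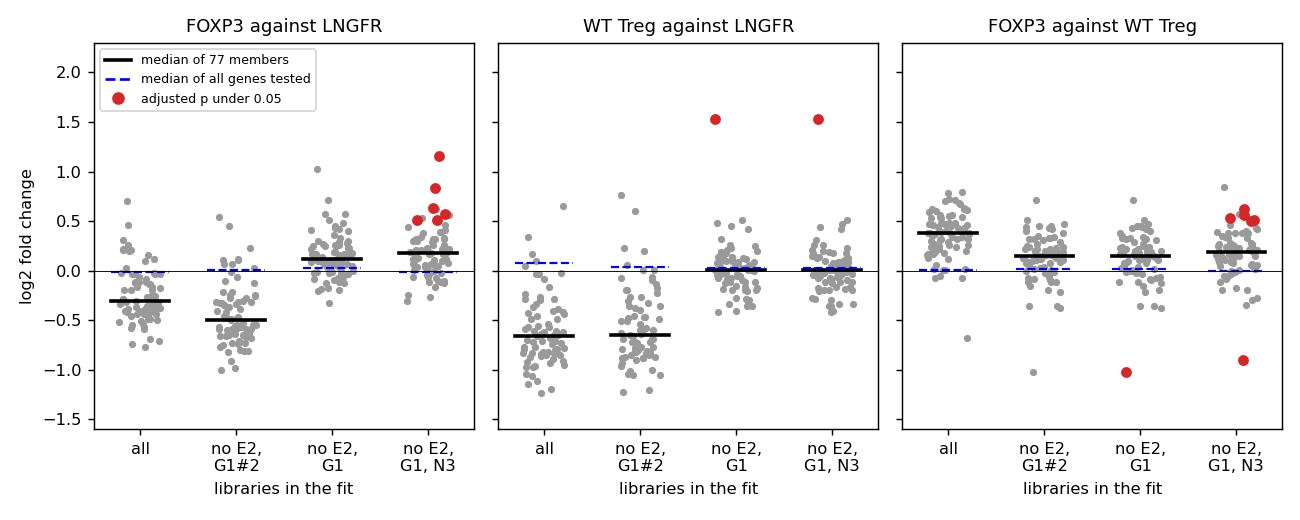
Log2 fold change (y axis) of the 77 genes tested in each comparison, fitted by edgeR with all codes and under 3 choices of libraries (x axis). The black line is the family's median, the dashed line that of all genes tested, and red points passed an adjusted p of 0.05. The median moves from -0.31 to 0.11 (left) and from -0.66 to 0.0073 (middle) once codes E2 and G1 are both out.

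Mrps6 was the only gene of the family that edgeR called once the 2 codes that stood apart were left out, and it was named after its values were seen. Its product, a small-subunit protein with a bacterial counterpart, is encoded on chromosome 16 (92058270 to 92112227, plus strand). It stood at 35.5, 122.4 and 93.2 CPM in WT Treg codes E2, G4 and L1, at 89.1, 29.8 and 44.8 CPM in LNGFR codes G1 to G3, and at 63.2, 62.8, 62.1, 43.5 and 35.0 CPM in FOXP3 codes F1, F2, F5, N2 and N3. G4 and L1 were above every other code, while E2 and G1 lay at the level of the opposite group. With all codes, the difference between WT Treg and LNGFR was 0.66 ± 0.46 (log2, SE; edgeR adjusted p = 0.515), and that between FOXP3 and WT Treg was -0.68 ± 0.40 (adjusted p = 0.441). Without codes E2 and G1, a setting chosen after seeing the data, only G4 and L1 stood against G2 and G3. Both codes left out ran against that difference for this gene, so the choice favoured the call. WT Treg was then higher than LNGFR by 1.53 ± 0.31 (edgeR adjusted p = 0.0193). FOXP3 was lower than WT Treg, with only G4 and L1 left, by 1.02, with an SE of 0.24 (edgeR adjusted p = 0.0479). FOXP3 against LNGFR was 0.51 ± 0.26 (adjusted p = 0.399). In single libraries without the repeat-like models, the first E2 library held 64.2 CPM and the second 38.9, and the first G1 library 97.4 against 21.2 in the second.

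The start of Mrps6 is shared with another gene. In GENCODE M21, 159 of the exon bases of Mrps6 lie in exons of Slc5a3 on the same strand, and 305 lie in those of the gene model Gm49711. Slc5a3 encodes a transporter that carries myo-inositol into cells with sodium. Slc5a3 stood at 43.4, 83.3 and 77.8 CPM in E2, G4 and L1, at 19.2, 39.1 and 28.5 CPM in G1 to G3, and at 30.4 to 36.6 CPM in the 5 FOXP3 codes. The 3 WT Treg codes were above all 8 other codes, E2 included. WT Treg and LNGFR differed by 1.25 ± 0.31 (log2, SE; edgeR adjusted p = 0.0787) with all codes and by 1.26 ± 0.20 (adjusted p = 0.00509) without E2 and G1. FOXP3 and WT Treg differed by -1.06 ± 0.27 (adjusted p = 0.0878) and -1.28 ± 0.16 (adjusted p = 0.00197). How far reads of the shared exon enter the count of Mrps6 was not tested.

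**Figure D5:**
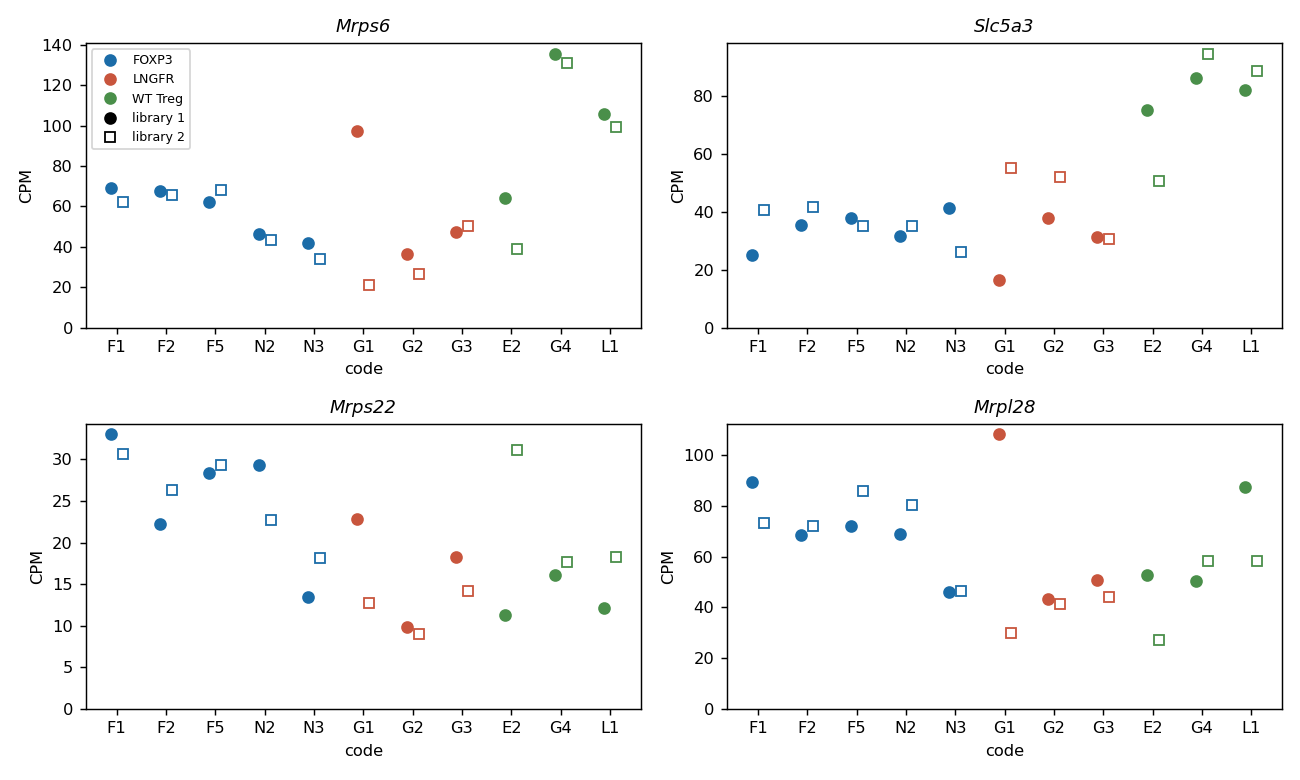
CPM without the repeat-like models (y axes, from 0) of Mrps6, Slc5a3, Mrps22 and Mrpl28 in each library by code (x axis), filled circles for the first and open squares for the second library. For Mrps6 and Slc5a3 codes G4 and L1 lie above the FOXP3 codes. For Mrps22 and Mrpl28 code N3 lies apart from the other 4 FOXP3 codes.

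The other genes set out for their role showed no call in any comparison with all codes or without E2 and G1. The stalk genes Mrpl10 and Mrpl12 stood at 62.5 to 78.3 and 55.3 to 73.4 CPM in the FOXP3 codes. In G2, G3, G4 and L1 they stood at 61.1 to 65.1 and 53.5 to 61.4 CPM. Mrpl10 did not share the peak in G1 (58.8 CPM), while Mrpl12 did (126.1 CPM). Mrpl11, at the base of the stalk, was at 26.3 to 31.4 CPM in FOXP3 codes, 30.9 and 27.2 CPM in G2 and G3, and 19.1 and 24.5 CPM in G4 and L1. Its difference between WT Treg and LNGFR was -1.12 ± 0.40 (log2, SE; edgeR adjusted p = 0.235) with all codes and -0.41 ± 0.21 (adjusted p = 0.421) without E2 and G1. Mrpl3 and Mrpl4, 2 large-subunit proteins with bacterial counterparts, differed between FOXP3 and LNGFR by 0.09 ± 0.15 and 0.17 ± 0.14 without E2 and G1.

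Mrpl44 (a protein with a ribonuclease-like fold), Mrpl45 and Mrpl58 (a peptidyl-tRNA hydrolase built into the large subunit) differed between FOXP3 and LNGFR by -0.04 ± 0.19, 0.06 ± 0.16 and -0.13 ± 0.18 without E2 and G1 (log2, SE). In the small subunit, Mrps7, Mrps12 (whose bacterial counterpart is part of the decoding centre) and Mrps16 gave 0.19 ± 0.17, 0.28 ± 0.18 and 0.04 ± 0.15. The edgeR adjusted p of these genes ran from 0.531 to 0.95. Mrps30 and Mrps18a carry small-subunit names but sit in the large subunit, and gave 0.10 ± 0.15 and 0.10 ± 0.16. Of the 3 Mrps18 paralogs, Mrps18c had the highest level per length (41.4 CPM per kb, against 12.7 for Mrps18a and 10.3 for Mrps18b). Mrps36, which is named as a subunit but works in the 2-oxoglutarate dehydrogenase complex, was at 9.6 to 12.1 CPM in the FOXP3 codes and at 5.4 and 9.6 CPM in G2 and G3 (0.57 ± 0.29, edgeR adjusted p = 0.397 without E2 and G1).

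More genes passed the test when code N3 was left out as well as E2 and G1. N3 had been chosen for this setting partly for its low cell-cycle level, so the counts that follow are a description. FOXP3 was then higher than LNGFR by edgeR for 6 genes of the 77 (Mrpl18, Mrpl20, Mrpl28, Mrpl40, Mrpl54 and Mrps22), where 6.61% of all genes were called higher, and lower for 0 (4.04%). The differences ran from 0.51 for Mrpl20 (adjusted p = 0.0274) to 1.16 ± 0.24 for Mrps22 (adjusted p = 0.0091), and the family's median was 0.18. FOXP3 was higher than WT Treg for 5 genes (Mrpl20, Mrpl27, Mrpl33, Mrpl57 and Mrps26), by 0.50 for Mrps26 to 0.62 for Mrpl27, and lower for Mrps6, where 3.85% of all genes were called higher and 3.57% lower. WT Treg was higher than LNGFR for Mrps6 alone, where 4.19% of all genes were called higher and 3.47% lower. As shares of the 77, these counts were 7.79%, 6.49% and 1.3%, so the first was close to the share of all genes.

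Mrpl20, a large-subunit protein with a bacterial counterpart, passed in both comparisons that include FOXP3, which share the FOXP3 codes. It stood at 98.5, 82.7, 103.1, 95.0 and 63.5 CPM in F1, F2, F5, N2 and N3, at 165.1, 66.9 and 65.9 CPM in G1 to G3, and at 31.6, 63.2 and 68.6 CPM in E2, G4 and L1. N3 lay below G2, G3 and L1 and beside G4, and the other 4 FOXP3 codes lay above every code but G1. The 25 cell-cycle genes tested averaged 6.51 to 7.11 log2 CPM in F1, F2, F5 and N2 and 4.70 in N3, beside 4.68 and 4.89 in G2 and G3 and 5.59 and 6.01 in G4 and L1. The B-cell markers of N3 given above move with the same split. The 10 myeloid markers summed to 6484 and 7416 CPM in N3, 450 to 1061 CPM in the other FOXP3 libraries and 279 to 1014 CPM in G2, G3, G4 and L1. In N3, 6351 and 7253 CPM of this was H2-Ab1, an MHC class II gene that B cells are also known to express, and the other 9 markers held 133 and 163 CPM, below the 177 to 253 CPM of the other FOXP3 libraries. The part of any of these in the differences was not tested.

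Genes that work with the mitochondrial ribosome gave few calls with all codes. Of 22 assembly factors, 15 translation factors, 17 mitochondrial aminoacyl-tRNA synthetases, 9 genes of mitochondrial DNA maintenance and transcription, 8 tested regulators of mitochondrial biogenesis and 5 subunits under other symbols such as Dap3 and Aurkaip1, edgeR called 0 in each of the 3 comparisons and 0 without codes E2 and G1. At an unadjusted p under 0.05, the assembly factors had 0 higher and 4 lower between WT Treg and LNGFR, in both fits, where 6.66% of all genes were lower with all codes and 6.49% without E2 and G1. Their median without E2 and G1 was -0.12 between FOXP3 and LNGFR, where that of the mitochondrial ribosomal protein genes was 0.11. Of the 12 mRNAs of mitochondrial DNA that were tested, 1 was called: mt-Nd3 was lower in FOXP3 than in WT Treg by 4.51 on the log2 scale, with an SE of 0.73 (edgeR adjusted p = 0.0192). In that comparison 0.136% of all genes were called higher and 0.123% lower. The gene rested on 99 counts in all, at 0.12 to 0.37 CPM in the FOXP3 codes, 0.12 to 1.34 in LNGFR and 5.19 to 7.90 in WT Treg. It entered the test mainly through the WT Treg codes, where it is high, so the call and these ranges are a description. The adjusted p was 0.0557 to 0.0691 when F1, F5, N2, G2 or L1 was left out. Between WT Treg and LNGFR, mt-Nd3 gave 3.36 ± 0.87 (log2, SE; edgeR adjusted p = 0.0958) with all codes. Without codes E2 and G1 it was higher in WT Treg by 4.16 ± 0.83 (edgeR adjusted p = 0.0172), where 1.77% of all genes were called higher. The voom fit gave 4.05 ± 0.77 (adjusted p = 0.00364), where 2.88% of all genes were called higher. These values rest on the same few counts and are a description as well. The other 11 mRNAs had no call, and the mitochondrial ribosomal RNAs were not analysed here. Without codes E2, G1 and N3, edgeR called Mrm1 (an rRNA methyltransferase) and Lars2 (the leucyl-tRNA synthetase) lower and Gabpb1 (a subunit of the ETS factor GABP) higher in FOXP3 than in LNGFR, where 6.61% of all genes were called higher and 4.04% lower. In WT Treg against LNGFR it called Mrm1 and the GTPases Eral1 and Mtg1 lower and Gabpb1 higher (4.19% of all genes higher and 3.47% lower). Between FOXP3 and WT Treg, mt-Nd3 was the only call in these lists.

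The 25 cell-cycle genes were all above 0 between FOXP3 and LNGFR, with a median of 1.74 (log2), and 2 of them, Bub1 and Hmmr, were called higher, where 0.168% of all genes were. With E2 and G1 left out, 0 were called by edgeR, where 0.824% of all genes were called higher. At an unadjusted p under 0.05, 24 were then higher (8.35% of all genes). Without E2, G1 and N3 all 25 were called higher, where 6.61% of all genes were. The choice of N3 rested partly on these same genes, which averaged 4.70 log2 CPM there and 6.51 to 7.11 in the other FOXP3 codes. Leaving N3 out favoured those 25 calls, which are a description and not a test. Among other cell types, the 12 B-cell markers had a median of 1.05 in the same comparison, which became -0.38 without E2, G1 and N3. With all codes, the 7 plasma-cell markers tested had a median of -1.15 with 5 below 0, the 3 CD8 and NK cell markers tested -0.75 with 3 below 0, and the 6 myeloid markers tested 0.02 with 3 below 0. Summed per library outside codes E2 and G1, B-cell markers held 1520 to 15848 CPM in FOXP3, 1422 to 1949 in LNGFR and 3819 to 4572 in WT Treg. Between WT Treg and LNGFR, however, 10 of the 12 markers were below 0, both with all codes and without E2 and G1. Their medians were -1.99 and -1.50. Only Ighm was called by edgeR, higher in both fits, where 0.627% and 1.77% of all genes were called higher. The part of any of these cell types in the family's levels was not tested. The cytosolic ribosomal protein genes (76 tested) had a median of -0.79 with all codes and -0.20 without E2 and G1, with 0 called in both. At an unadjusted p under 0.05, 0 of them were higher and 38 lower with all codes, against 4.81% and 5.5% of all genes. Without E2, G1 and N3, edgeR called 1 higher and 12 lower of 75 tested (6.61% and 4.04% of all genes). The genes whose log2 CPM followed the family's mean most closely over all 11 codes, among 8652 genes with at least 10 CPM, were Nme1, Cox6c, Tomm5, Btf3 and Chchd2 (Pearson r 0.994 to 0.996). Over the 9 codes without E2 and G1 they were Pdap1, Ndufa1, Ostc, Bcap31 and Ghitm (0.970 to 0.979). These are correlations across codes that include the groups, given as a description.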

How the data were processed

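The authors deposited unnormalized whole-number counts of reads for each gene, library by library. The submitters' processing notes name featureCounts, Subread 2.0.0, STAR 2.7.3a and the build mm10 (GRCm38), with no annotation. How strand and reads with several matches were handled is not given in the sources used here. Sample titles gave the groups. Both libraries of a code were summed, giving 11 codes, and library totals ran from 332570 to 5453375 counts. All 3 groups entered 1 fit in edgeR 4.0.16 (R 4.3.3): filterByExpr, TMM, robust quasi-likelihood test, Benjamini-Hochberg adjustment over all 15462 genes tested, threshold 0.05. SEs were derived from the fold change and the F statistic. CPM values use TMM library sizes, unless said to be without the repeat-like models, and log2 CPM has a prior count of 1. The fit was tested on simulated data. DESeq2 1.42.0, limma 3.58.1 (voom), other scalings, no filter, codes or libraries left out and the exclusion of the Gm10800 family were alternatives. Positions and exon lengths are those of GENCODE M21 on GRCm38, where 15151 of the genes tested matched by symbol, and promoters are RefSeq's. Named genes are those called (otherwise the 3 with the smallest p), genes fixed for their role, and the 3 highest and lowest per length, and others are named as chosen after their values were seen. The genes, lists and settings were chosen with earlier results of these data known.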

Additional observations from a re-analysis of the deposited data

Results flagged for a closer look

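Of 40 sets of 5 FOXP3 values that were checked for a lone code far from the rest, 4 had one, and it was N3 in each. Log2 CPM in N3 was 5.42 for Mrpl28 (6.05 to 6.30 in the other 4 FOXP3 codes), 5.83 for Mrpl57 (6.22 to 6.28), 5.64 for Mrpl33 (6.35 to 6.59) and 4.52 for Mrpl27 (5.15 to 5.30). All 4 proteins belong to the large subunit, as do most of the family's genes that were checked. The gap to the nearest code was over 0.71 of the whole range of the 5 values in each, and chance alone gives that for about 1 set in 20. The 40 sets share the same 5 codes, and some of the genes were checked because of their p-values or calls. They are therefore not separate tests, and the 4 cannot be weighed against that rate and are a description. N3 is also the code with the most B-cell marker RNA (14396 and 15848 CPM), the most RNA of the MHC class II gene H2-Ab1 (6351 and 7253 CPM, next 3195 CPM in the first G1 library) and the lowest cell-cycle level of the FOXP3 group (4.70 log2 CPM). The part of any of these was not tested.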

How the results depend on the processing

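No paired analysis was possible because the groups share no code. With all codes, edgeR called 0 genes of the family in every comparison, as it did under each single code left out, other scalings, no low-count filter, DESeq2 and the fit without code E2 and library G1#2. Without codes E2, G1 and N3, it called 6 higher between FOXP3 and LNGFR, 1 higher between WT Treg and LNGFR, and 5 higher and 1 lower between FOXP3 and WT Treg. Without codes E2 and G1 (chosen after seeing the data), the last 2 comparisons gave 1 higher and 1 lower. Voom with quality weights, which gives weak codes less weight, called 2 higher, 1 higher, and 1 higher and 1 lower in the same order. The median between FOXP3 and LNGFR was -0.31 with all codes, 0.18 without E2, G1 and N3, 0.11 without E2 and G1, 0.12 by voom, and -0.34 to 0.12 with each code left out in turn, the highest being without G1. The median between WT Treg and LNGFR was -0.66 with all codes, 0.0068 without E2, G1 and N3, 0.0073 without E2 and G1, -0.067 by voom, -0.25 without G1 and -0.43 without E2. Between FOXP3 and WT Treg it was 0.38 with all codes, 0.16 without E2, 0.72 without G4 and 0.61 without L1. Mrpl22 between FOXP3 and LNGFR was 0.047 without E2, G1 and N3 in place of -0.69, and Mrpl28 was -0.066 without code E2 and library G1#2 in place of 0.16. No low-count filter moved the median of all genes to -0.22, 0.18 and -0.42 in the 3 comparisons, and library totals alone moved it to 0.11 between FOXP3 and WT Treg. Of 300 values for single genes under 20 alternatives, 268 kept their direction and side of the threshold, 25 came to pass it, 5 (mt-Nd3) no longer passed it and 2 changed sign. The spread between codes, a common coefficient of variation of 0.491 with all codes and 0.310 without E2 and G1, limits what a group of 3 can show. In code E2 a median of 15 counts per gene of the family sets that code's precision.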
